A study of Mus musculus with 8 samples.

Results

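Transporters of sugars, amino acids, small peptides and monocarboxylates were followed in colon RNA of mice with colitis. The genes were all rows of the deposited table whose symbol begins with Slc followed by the family number 1, 2, 5, 6, 7, 15, 16, 36, 38 or 43, then the letter a and a number, which gave 105 of 18806 genes. The pattern also took in 2 rows that are named for a neighbouring transporter and are not carriers themselves, Slc7a6os and the long non-coding RNA gene Slc6a19os. All 8 mice received dextran sulfate sodium (DSS), which damages the lining of the colon, and 4 of them also received Alistipes putredinis (AP), an anaerobic gut bacterium. The groups are called DSS and DSS+AP, with 4 mice each, picked at random and sequenced as 1 library per mouse. Strain, age, dose and days of treatment are not given in the sources used here, and no mouse without DSS was among the samples.

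Solute carriers move nutrients across cell membranes. In the gut, apical carriers of the enterocyte take up sugars, amino acids, peptides and bacterial short-chain fatty acids with sodium or proton gradients, and basolateral carriers pass them to the blood. Other members of the same families serve dividing cells, leukocytes, nerves, glia and vessels. Several SLC7 carriers reach the membrane only with a heavy chain encoded by Slc3a1 or Slc3a2, and several SLC16 carriers need basigin or embigin.

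Libraries held between 16089081 and 17104290 estimated counts, and totals did not differ detectably between groups (two-sided exact permutation test, p = 0.829, n = 4 each). The transporter genes took between 0.380% and 0.433% of the counts of a library. Of the 105 genes, 77 passed the low-count filter and were tested. Passing that filter depends on expression, so counts over the 77 do not describe all members. The other 28 had at most 26 counts in any library, and 17 of them never exceeded 3 counts. Levels are given as CPM, counts per 1000000 of the scaled library total, where 3 counts correspond to between 0.167 and 0.186 CPM.

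The transporters were called at about the rate of the whole table. At an edgeR adjusted p under 0.05, 6 of the 77 tested genes were higher and 17 lower in DSS+AP. Over all 14578 genes tested, 29.2% were called, 8.84% as higher and 20.4% as lower. The share among the transporters was 29.9%, so the number of calls is not a result about them. Their median log2 fold change was -0.02 and that of all genes 0.02. The groups did not overlap in 22 tested transporters, 5 of them higher and 17 lower in DSS+AP, where 10.8% and 19.6% of all tested genes were separated in these directions. Falls of at least 2-fold were called in 11 transporters (11.7% of all tested genes) and a rise of that size in 1 (0.727%). The number of higher transporters was 11 without DSS 2 or DSS+AP 2 and 3 when DSS 4, DSS+AP 3 or DSS+AP 4 was left out, and that of lower ones was 11 without DSS+AP 1. The plot of fold changes by family shows which genes moved. The counts of calls within families are small, and each is read against the shares over all tested genes, 8.84% higher and 20.4% lower.

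**Figure D1:**
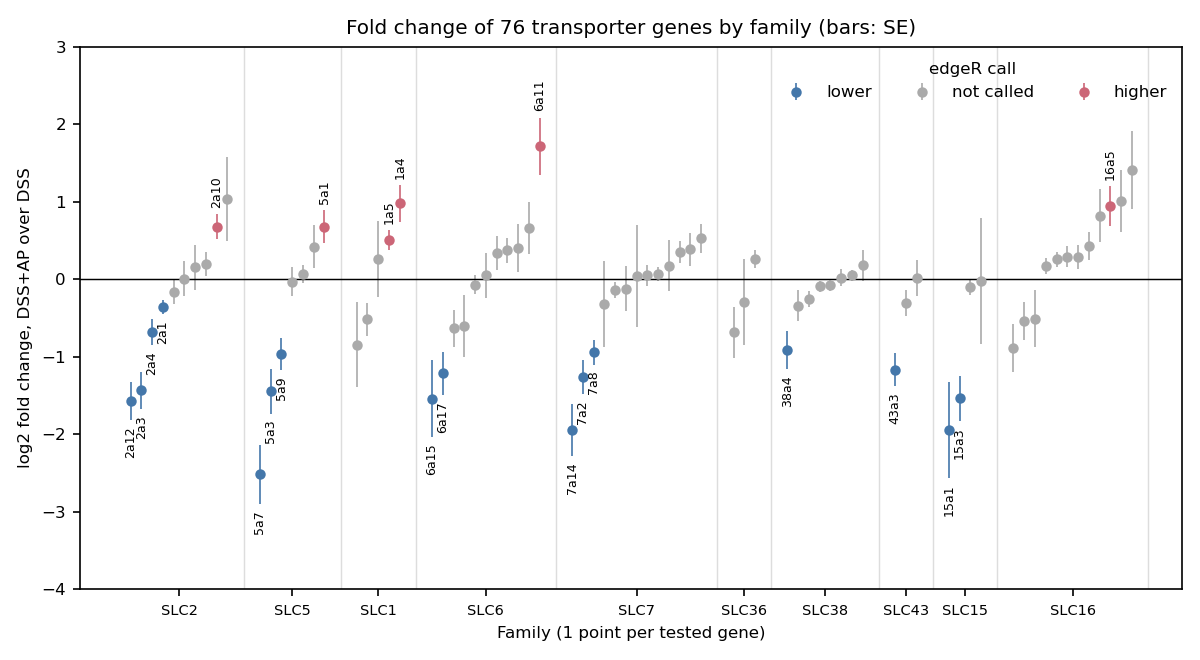
Log2 fold change of DSS+AP over DSS (vertical axis) with its standard error for 76 of the tested transporter genes, 1 point per gene, arranged by family. Coloured points passed the edgeR threshold, and they range from -2.52 for Slc5a7 to 1.72 for Slc6a11.

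The 6 higher genes were the neutral amino acid exchangers Slc1a4 and Slc1a5, the glucose carrier genes Slc5a1 and Slc2a10, the monocarboxylate family gene Slc16a5 and the GABA carrier gene Slc6a11. The 17 lower genes included nerve carriers such as Slc5a7, Slc6a17 and Slc7a14, the facilitative glucose carriers Slc2a1, Slc2a3, Slc2a4 and Slc2a12, and the peptide carriers Slc15a1 and Slc15a3. Markers of other cell types were measured in the same libraries. Those of enteric neurons fell in 9 of 9 tested genes, those of endothelium in 8 of 8, of fibroblasts in 8 of 8, of smooth muscle in 8 of 9, of macrophages in 8 of 9, of neutrophils in 7 of 7, of B cells in 7 of 7, of erythrocytes in 5 of 5 and of enteric glia in 4 of 5. Other lists had few calls. Of 7 T cell markers 1 rose and 1 fell (3 higher and 1 lower at an unadjusted edgeR p under 0.05). Of 8 enteroendocrine markers 0 rose and 1 fell (0 higher and 3 lower at an unadjusted edgeR p under 0.05). EdgeR called 0 of 4 tested mast cell markers (2 lower at an unadjusted p under 0.05). It also called 0 of 6 adipocyte markers (0 at an unadjusted p under 0.05). Of 14 colon epithelium markers 4 rose and 0 fell (1 at an unadjusted edgeR p under 0.05), with sums of 15674 to 21823 CPM in DSS and 17313 to 30318 CPM in DSS+AP. No marker of any list was at 0 in all libraries. Within such bulk tissue, fewer cells of a type and less RNA per cell cannot be told apart.

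**Figure D2:**
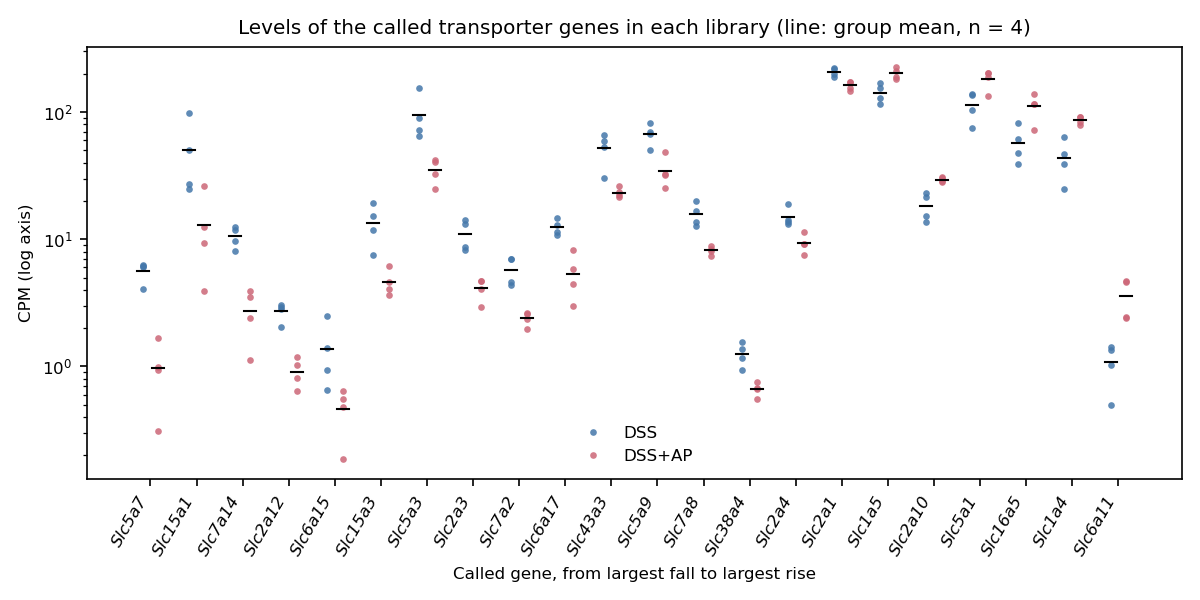
CPM (log axis) of 22 called transporter genes in each of the 8 libraries, ordered from the largest fall to the largest rise, with the group mean as a line. The groups overlap in 3 of these genes, Slc15a1, Slc5a1 and Slc16a5.

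To show what lies upstream of genes at both ends of this order, the 250 bases before a RefSeq start are given for 3 higher genes, for the gene with the largest fall and for the cystine carrier gene Slc7a11, whose promoter holds the motif of the amino acid response. Capitals mark matches, on either strand, to TGATGNAA (the core bound by ATF4 with C/EBP partners), ACGTG (the hypoxia response core), TGACNNNGC (the antioxidant response core bound by NRF2) or an HNF1 site. All are from the RefSeq promoter table of GRCm38.p6, which holds 77 of the 105 genes. The windows are chr11:20332714-20332963 (minus strand) for Slc1a4, chr5:33103969-33104218 (plus) for Slc5a1, chr6:114130991-114131240 (plus) for Slc6a11, chr17:54299035-54299284 (minus) for Slc5a7 and chr3:50443614-50443863 (minus) for Slc7a11, the last at a start inside the annotated gene.
Slc1a4: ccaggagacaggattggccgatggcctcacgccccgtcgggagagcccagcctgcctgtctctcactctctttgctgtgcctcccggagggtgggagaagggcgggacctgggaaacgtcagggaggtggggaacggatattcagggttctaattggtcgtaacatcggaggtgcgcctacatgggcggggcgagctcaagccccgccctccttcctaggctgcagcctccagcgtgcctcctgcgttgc
Slc5a1: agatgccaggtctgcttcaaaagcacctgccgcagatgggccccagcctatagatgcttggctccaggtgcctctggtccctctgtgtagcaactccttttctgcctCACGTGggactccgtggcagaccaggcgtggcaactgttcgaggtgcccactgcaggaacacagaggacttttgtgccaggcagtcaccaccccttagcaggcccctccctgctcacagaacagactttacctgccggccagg
Slc6a11: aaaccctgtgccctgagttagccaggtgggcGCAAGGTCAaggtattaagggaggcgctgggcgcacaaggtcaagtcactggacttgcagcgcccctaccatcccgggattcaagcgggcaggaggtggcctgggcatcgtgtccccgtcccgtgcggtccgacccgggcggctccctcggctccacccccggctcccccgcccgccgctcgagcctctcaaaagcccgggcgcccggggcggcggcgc
Slc5a7: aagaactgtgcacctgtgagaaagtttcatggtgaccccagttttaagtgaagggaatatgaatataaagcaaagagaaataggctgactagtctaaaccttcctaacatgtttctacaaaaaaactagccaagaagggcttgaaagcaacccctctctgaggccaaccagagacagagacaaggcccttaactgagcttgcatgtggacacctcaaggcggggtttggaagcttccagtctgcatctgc
Slc7a11: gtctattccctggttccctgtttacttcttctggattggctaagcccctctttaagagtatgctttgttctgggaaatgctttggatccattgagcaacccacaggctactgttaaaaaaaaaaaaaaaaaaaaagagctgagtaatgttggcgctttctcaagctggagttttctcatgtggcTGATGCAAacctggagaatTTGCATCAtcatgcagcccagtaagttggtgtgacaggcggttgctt
Slc7a11 holds the ATF4 core on both strands, Slc5a1 the palindromic CACGTG that contains the hypoxia core on each strand, and Slc6a11 the antioxidant core. No match to these letters lies in the windows of Slc1a4 and Slc5a7. Among the 32851 promoters of the table, 3.45% hold TGATGNAA, 16.6% hold ACGTG, 10.2% hold TGACNNNGC and 0.134% hold the HNF1 site. Among the 100 promoters of the 77 transporter genes held there, 20 of them untested for expression, the shares were 4%, 21%, 10% and 0%. That table holds 4 of the 6 higher and 9 of the 17 lower genes, and the other called genes could not be searched. Of the called genes it holds, ACGTG was also upstream of Slc2a1 and Slc7a14, both lower.

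Levels between genes were compared per length, as mean CPM per kilobase of the longest annotated transcript. In the order of the DSS means, Slc6a14, the broad sodium- and chloride-coupled carrier of neutral and basic amino acids, stood first with 211 in DSS and 266 in DSS+AP. The creatine carrier gene Slc6a8 followed with 75.0 and 48.5, the glucose carrier gene Slc2a1 with 63.7 and 49.7, and Slc16a1, which encodes the butyrate and lactate carrier MCT1, with 58.1 and 69.6. Slc1a5 had 50.8 and 72.1, the sodium-coupled monocarboxylate carrier gene Slc5a8 had 42.2 and 44.2, and the glutamine carrier gene Slc38a2 had 41.4 and 38.9. In DSS+AP the order was another, with Slc1a5, Slc16a1 and Slc2a1 above Slc6a8. From Slc6a8 on, the DSS libraries of each of these genes overlapped those of the next in the order. In DSS, 20 tested genes were above 10 CPM per kilobase, 39 were between 1 and 10, and 18 were below 1. Calls in these classes were 4 higher and 4 lower, 1 higher and 9 lower, and 1 higher and 4 lower.

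**Figure D3:**
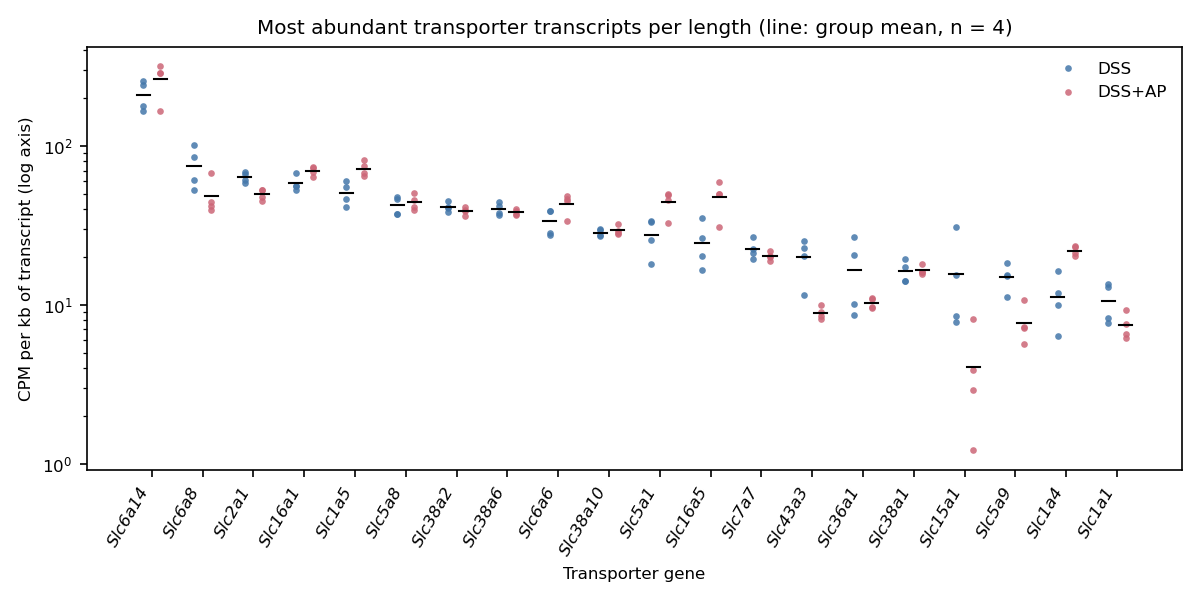
CPM per kilobase of transcript (log axis) of the 20 most abundant tested transporter genes, 4 libraries per group with the group mean as a line. Slc6a14 has the highest group means, 211 and 266, and Slc15a1 the widest spread of the genes shown.

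Of the 12 genes of SLC2, the family of facilitative glucose carriers, 10 were tested, 4 were lower and 1 higher. Over all tested genes 20.4% were lower and 8.84% higher. The family median was -0.08, with 5 positive and 5 negative fold changes. Slc2a1 encodes GLUT1, the basal glucose carrier of most cells (gene 20525; chromosome 4, 119108745 to 119137330). It held 189, 218, 224 and 200 CPM in DSS and 155, 148, 173 and 172 CPM in DSS+AP, so every DSS+AP library was lower, by a small margin. Its log2 fold change was -0.36 ± 0.09 (SE; edgeR adjusted p = 0.0156, n = 4 per group), and the call was lost without DSS 2 (0.0516) or DSS+AP 1 (0.0786). Slc2a3, the high-affinity GLUT3 of neurons and leukocytes (chromosome 6, 122727809 to 122802363), held 14.3, 8.18, 8.74 and 13.2 CPM in DSS and 4.74, 4.67, 2.91 and 4.09 CPM in DSS+AP. It fell by 1.43 ± 0.24 (edgeR adjusted p = 0.00458), with DSS 1 and DSS 4 highest. The minor carrier gene Slc2a12, which encodes GLUT12, held 3.06, 2.06, 2.85 and 2.92 CPM in DSS and 1.02, 0.642, 0.806 and 1.18 CPM in DSS+AP. Its change was -1.57 ± 0.25 (edgeR adjusted p = 0.00407), the smallest p of the family, and no library pair across the groups overlapped. The insulin-responsive GLUT4 gene Slc2a4 held 13.7, 14.2, 18.8 and 13.2 CPM in DSS and 9.12, 11.4, 9.24 and 7.50 CPM in DSS+AP, a change of -0.68 ± 0.17 (edgeR adjusted p = 0.0164) that was lost without DSS+AP 1 (0.0558). In these libraries the summed enteric neuron markers ran from 124 to 199 CPM in DSS and from 24.8 to 63.0 CPM in DSS+AP, and the neutrophil markers from 52.2 to 314 and from 9.05 to 39.5 CPM. Their part in the falls of Slc2a3 and Slc2a12 was not tested.

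Slc2a10, which encodes GLUT10, was the SLC2 gene that rose. It held 15.4, 23.1, 21.4 and 13.8 CPM in DSS and 30.4, 28.3, 28.6 and 30.9 CPM in DSS+AP (gene 170441; chromosome 2, 165503897 to 165519917). The DSS+AP libraries were nearly equal to each other and all above DSS, a change of 0.68 ± 0.16 (edgeR adjusted p = 0.0156). The fructose carrier gene Slc2a5 held 1.84, 5.65, 1.49 and 1.28 CPM in DSS and 3.54, 2.57, 7.19 and 7.87 CPM in DSS+AP. Its 1.04 ± 0.54 did not pass (edgeR adjusted p = 0.172). Without DSS 2, the one DSS library inside the DSS+AP range, it was 1.83 and passed (0.0146). Slc2a6, Slc2a8, Slc2a9 and the myo-inositol carrier gene Slc2a13 had changes between -0.16 and 0.19 and did not pass. Slc2a2, the GLUT2 of small intestine and liver, had 0 to 2 counts per library and Slc2a7 the same, and neither was tested.

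The sodium-coupled SLC5 carriers moved in both directions, 3 lower and 1 higher of 7 tested from 13 genes, with a median of -0.03. Slc5a1 encodes SGLT1, which takes up glucose and galactose at the apical membrane (gene 20537; chromosome 5, 33104219 to 33162699). It held 74.6, 137, 138 and 104 CPM in DSS and 188, 134, 201 and 204 CPM in DSS+AP, with means of 113 ± 30.3 and 182 ± 32.5 CPM (SD, n = 4 each), and rose by 0.68 ± 0.21 (edgeR adjusted p = 0.0379). DSS+AP 2 lay below DSS 2 and DSS 3. The summed proximal gut markers gave 209, 445, 340 and 227 CPM in DSS and 645, 346, 625 and 679 CPM in DSS+AP. Those of colon epithelium gave 15674, 18813, 21823 and 16975 CPM in DSS and 25906, 17313, 30318 and 26663 CPM in DSS+AP. Their part in the rises of Slc5a1, Slc2a10 and Slc16a5 was not tested. Leaving out DSS 4 ended the call (0.0975), and so did leaving out DSS+AP 1 (0.0581), DSS+AP 3 (0.0945) and DSS+AP 4 (0.0872). Slc5a9, a carrier of mannose and related sugars known as SGLT4, went the other way, with 67.6, 50.6, 69.2 and 82.4 CPM in DSS and 25.4, 48.2, 32.4 and 32.1 CPM in DSS+AP (chromosome 4, 111875374 to 111902796). Its -0.97 ± 0.21 (edgeR adjusted p = 0.0102) left a narrow gap between DSS 2 and DSS+AP 2.

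Slc5a7 and Slc5a3 carried the other SLC5 falls. Slc5a7, the choline uptake carrier of cholinergic nerve endings (gene 63993; chromosome 17, 54273590 to 54299038), held 6.07, 4.06, 6.26 and 6.21 CPM in DSS and 1.68, 0.934, 0.310 and 0.991 CPM in DSS+AP. Its mean went from 5.65 ± 1.06 CPM to 0.979 ± 0.560 CPM (SD, n = 4 each). It had the largest fall of the tested transporter genes, -2.52 ± 0.38 (edgeR adjusted p = 0.00385). With 5 counts in DSS+AP 3 its size is imprecise. Chat, the choline acetyltransferase gene of the same neurons, changed by -0.95 ± 0.23 and the neuronal gene Elavl4 by -2.42 ± 0.37 in these libraries, and their part in the fall was not tested. Slc5a3, which brings in the osmolyte myo-inositol, held 90.7, 72.2, 65.2 and 155 CPM in DSS and 40.8, 42.1, 24.9 and 32.6 CPM in DSS+AP. It changed by -1.45 ± 0.29 (edgeR adjusted p = 0.00776), with DSS 4 far above the other libraries. DSS 4 also held 15448 CPM of summed pancreatic acinar markers, and their part in the Slc5a3 value was not tested. The butyrate carrier gene Slc5a8 was level, with 199, 246, 199 and 256 CPM in DSS and 270, 242, 210 and 221 CPM in DSS+AP (0.07 ± 0.12; edgeR adjusted p = 0.691). The vitamin carrier gene Slc5a6 had 13.3 to 24.1 CPM over all libraries (-0.03 ± 0.18), and the iodide carrier gene Slc5a5 was at 0.42 ± 0.28. Slc5a2, Slc5a4a, Slc5a4b, Slc5a10, Slc5a11 and Slc5a12 were untested, and Slc5a2 and Slc5a12 had no count in any library.

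Among amino acid carriers, both neutral exchangers of SLC1 rose. They trade alanine, serine, cysteine and, for Slc1a5, glutamine across the membrane. Slc1a4, which encodes ASCT1 (gene 55963; chromosome 11, 20302180 to 20332713), held 46.5, 64.2, 38.9 and 25.1 CPM in DSS and 90.9, 79.2, 91.6 and 82.9 CPM in DSS+AP. Its mean went from 43.7 ± 16.3 CPM to 86.2 ± 6.11 CPM (SD, n = 4 each), a log2 change of 0.98 ± 0.24 (edgeR adjusted p = 0.0157), with all DSS+AP libraries above all DSS libraries. Slc1a5, which encodes ASCT2 (gene 20514; chromosome 7, 16781334 to 16798274), held 116, 170, 155 and 129 CPM in DSS and 182, 190, 228 and 210 CPM in DSS+AP. It rose by 0.51 ± 0.13 (edgeR adjusted p = 0.0204), a call that ended when DSS 4 was left out (0.0602), and likewise for DSS+AP 3 (0.0596) and DSS+AP 4 (0.0520). The epithelial glutamate carrier gene Slc1a1 held 51.5, 31.5, 29.1 and 49.3 CPM in DSS and 28.9, 35.3, 25.0 and 23.6 CPM in DSS+AP. Its -0.52 ± 0.21 did not pass (edgeR adjusted p = 0.0972), and 31.9% of its exon bases overlap a gene on the other strand, which makes its count uncertain. The glial glutamate carrier genes Slc1a2 and Slc1a3, at 0.26 ± 0.50 and -0.84 ± 0.55, did not pass, and Slc1a6 and Slc1a7 were untested.

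SLC6 holds carriers of neurotransmitters, amino acids and osmolytes, and 11 of its 21 genes were tested, with 1 higher and 2 lower and a median of 0.05. Slc6a11, the GABA carrier GAT3, had the largest rise of all called transporter genes, from a low level (gene 243616; chromosome 6, 114131241 to 114249886). It held 0.502, 1.35, 1.43 and 1.04 CPM in DSS and 2.46, 4.67, 4.65 and 2.42 CPM in DSS+AP, a change of 1.72 ± 0.37 (edgeR adjusted p = 0.0105) without overlap. Slc6a17, a vesicular amino acid carrier of neurons, held 14.8, 11.4, 10.9 and 12.9 CPM in DSS and 5.88, 8.17, 2.98 and 4.46 CPM in DSS+AP. It changed by -1.22 ± 0.27 (edgeR adjusted p = 0.0123). Slc6a15, a neutral amino acid carrier of neurons, held 2.51, 0.647, 0.929 and 1.40 CPM in DSS and 0.480, 0.642, 0.186 and 0.558 CPM in DSS+AP. The gap between DSS 2 and DSS+AP 2 was slight. Its -1.54 ± 0.50 just passed (edgeR adjusted p = 0.0450), and only leaving out DSS 2 kept the call (0.0528 to 0.106 for each of the other libraries). The summed enteric neuron markers gave 199, 124, 144 and 192 CPM in DSS and 55.2, 63.0, 24.8 and 37.2 CPM in DSS+AP, lowest in DSS+AP 3 as were Slc6a17 and Slc6a15, and their part in these falls was not tested.

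The abundant SLC6 genes did not pass. Slc6a14 held 617, 882, 568 and 826 CPM in DSS and 995, 573, 995 and 1092 CPM in DSS+AP, with DSS+AP 2 inside the DSS range (0.34 ± 0.22; edgeR adjusted p = 0.263, and 0.0470 without DSS+AP 2). The creatine carrier gene Slc6a8 held 242, 210, 337 and 401 CPM in DSS and 176, 269, 157 and 166 CPM in DSS+AP. Its -0.63 ± 0.24 had an edgeR adjusted p of 0.0744 and passed without DSS 2 (0.0399) or DSS+AP 2 (0.0238), and limma-voom called it at -0.84 (adjusted p = 0.00811). The taurine carrier gene Slc6a6 ran from 170 to 241 CPM in DSS and from 208 to 298 CPM in DSS+AP (0.37 ± 0.16; edgeR adjusted p = 0.104), and passed without DSS 2 (0.0407) or DSS+AP 2 (0.0385) and with limma-voom (0.0285). The serotonin reuptake carrier gene Slc6a4 held 2.56 to 6.33 CPM in DSS and 3.10 to 5.14 CPM in DSS+AP (0.05 ± 0.29). Slc6a19, the main neutral amino acid carrier of small intestine, was low, at 0.780 to 1.88 and 1.40 to 2.98 CPM (0.67 ± 0.34; edgeR adjusted p = 0.161). The proline carrier gene Slc6a7, the glycine carrier gene Slc6a9 and Slc6a20a were at 0.40, -0.07 and -0.61 and did not pass, and the counts of Slc6a9 and Slc6a20a are uncertain because 30.2% and 14.3% of their exon bases overlap genes on the other strand. The noradrenaline carrier gene Slc6a2 was untested, with 7 to 18 counts per DSS library and 1 to 7 per DSS+AP library. It was called by edgeR without a low-count filter and by DESeq2. Slc6a3, Slc6a5, Slc6a12, Slc6a13, Slc6a18, Slc6a19os, Slc6a20b and Slc6a21 were untested too.

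In SLC7, the family of cationic and large neutral amino acid carriers, 3 of 13 tested genes were lower and 0 higher, with a median of 0.05. At an unadjusted edgeR p under 0.05, 2 were higher, and DESeq2 called 1 and limma-voom 2. Slc7a14, a lysosomal member expressed in the nervous system (gene 241919; chromosome 3, 31202854 to 31310567), held 11.8, 8.12, 9.73 and 12.5 CPM in DSS and 3.90, 3.50, 1.12 and 2.42 CPM in DSS+AP. It fell by 1.94 ± 0.33 (edgeR adjusted p = 0.00493). Slc7a2, the arginine carrier CAT2 of activated macrophages and other cells, held 7.02, 4.36, 4.65 and 6.94 CPM in DSS and 1.98, 2.63, 2.36 and 2.60 CPM in DSS+AP, a change of -1.26 ± 0.22 (edgeR adjusted p = 0.00494). Slc7a8, which encodes the exchanger LAT2, held 13.7, 12.8, 19.8 and 16.7 CPM in DSS and 8.88, 8.06, 7.38 and 8.43 CPM in DSS+AP (-0.94 ± 0.16; edgeR adjusted p = 0.00461). All 3 were without overlap between groups. Summed macrophage markers ran from 380 to 798 CPM in DSS and from 312 to 361 CPM in DSS+AP, and their part in the fall of Slc7a2 was not tested.

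The SLC7 genes tied to growth and redox balance did not pass. Slc7a5, the LAT1 carrier of leucine and other essential amino acids, held 22.7, 16.8, 14.2 and 17.9 CPM in DSS and 22.8, 34.4, 25.0 and 21.3 CPM in DSS+AP, overlapping through DSS 1. Its 0.53 ± 0.19 had an edgeR adjusted p of 0.0600, and 0.0349 without DSS 1. DESeq2 and limma-voom called it (adjusted p = 0.0255 and 0.0382). The arginine carrier gene Slc7a1 ran from 46.3 to 68.0 CPM in DSS and from 61.5 to 83.9 CPM in DSS+AP (0.36 ± 0.14; edgeR adjusted p = 0.0837, 0.0412 without DSS 1, and 0.0290 with limma-voom). The cystine carrier gene Slc7a11, with the paired ATF4 cores shown above, held 37.6, 22.3, 13.9 and 27.1 CPM in DSS and 23.2, 32.1, 18.0 and 19.5 CPM in DSS+AP (-0.12 ± 0.29; edgeR adjusted p = 0.776). Slc7a7 and Slc7a9, which carry cationic amino acids out of and into the enterocyte, were at -0.14 ± 0.10 and 0.18 ± 0.33. The estimated counts of Slc7a7 were not whole in any library, so its level is uncertain. Slc7a4, Slc7a6, Slc7a6os, Slc7a10 and Slc7a15 lay between -0.32 and 0.39 and did not pass, with opposite-strand overlap of 13.3% of the exon bases in Slc7a4 and 17.9% in Slc7a10, and Slc7a3 and Slc7a13 were untested.

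In the smaller amino acid families 2 genes fell. Slc43a3, a nucleobase carrier of the SLC43 family (gene 58207; chromosome 2, 84936545 to 84958509), held 59.7, 30.3, 53.2 and 65.8 CPM in DSS and 21.4, 26.0, 23.5 and 22.3 CPM in DSS+AP. It changed by -1.16 ± 0.21 (edgeR adjusted p = 0.00600). Its relatives Slc43a1 and Slc43a2, which carry branched-chain and aromatic amino acids, were at 0.01 ± 0.23 and -0.30 ± 0.17 and did not pass. Slc38a4, a system A carrier, was lower at a low level, with 1.56, 0.942, 1.36 and 1.16 CPM in DSS and 0.660, 0.759, 0.558 and 0.681 CPM in DSS+AP (-0.91 ± 0.24; edgeR adjusted p = 0.0235). That call held only when DSS 2 or DSS+AP 2 was the library left out, and each other omission gave 0.0501 to 0.0744. The main glutamine carriers were level: Slc38a2 held 235 to 276 CPM in DSS and 220 to 251 CPM in DSS+AP (-0.09 ± 0.08), and Slc38a1 held 103 to 141 and 114 to 131 CPM (0.02 ± 0.11). Slc38a6, Slc38a7, Slc38a10, Slc38a11 and the lysosomal arginine sensor gene Slc38a9 lay between -0.34 and 0.18 without a call. The counts of Slc38a6 were not whole in any library.

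Slc36a1, the proton-coupled carrier of small amino acids, divided the DSS mice. It held 45.3, 53.3, 109 and 140 CPM in DSS and 50.6, 50.8, 56.9 and 58.0 CPM in DSS+AP, so DSS 3 and DSS 4 were high and the DSS+AP libraries close to DSS 1 and DSS 2. The difference, -0.69 ± 0.33, did not pass (edgeR adjusted p = 0.142). Without DSS 1 it did (0.0456), and without DSS 4 the change was -0.36. Slc36a2 and Slc36a4 were at -0.29 and 0.26 and did not pass, and Slc36a3 was untested.

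Peptide carriers of SLC15 were lower in 2 of 4 tested genes, where 20.4% of all tested genes were lower. Slc15a1 encodes PEPT1, the apical carrier of di- and tripeptides (gene 56643; chromosome 14, 121459621 to 121505254). It held 27.3, 25.0, 50.1 and 99.4 CPM in DSS and 12.5, 26.4, 3.91 and 9.42 CPM in DSS+AP, and DSS+AP 2 overlapped the DSS libraries. Its change of -1.95 ± 0.62 just passed (edgeR adjusted p = 0.0445) and held only when DSS 2 or DSS+AP 2 was the library left out (0.0634 to 0.115 for each other omission). The distal gut marker gene Hoxb13 held 32.7, 4.12, 51.6 and 123 CPM in DSS and 0.720, 13.1, 0 and 0.248 CPM in DSS+AP, but edgeR called neither it nor any other of the 5 tested distal markers, of which 1 was lower at an unadjusted p under 0.05. The summed distal markers, Hoxb13 among them, ran from 198 to 326 CPM in DSS and from 167 to 221 CPM in DSS+AP. Their log2 ratio of -0.44, to which Hoxb13 contributed, was -1.97 as the difference in mean log2 CPM. The summed proximal markers ran from 209 to 445 and from 346 to 679 CPM, with 1 of 5 tested higher and 0 lower, a log2 ratio of 0.91 that was 0.28 as the difference in mean log2 CPM. The part of the sampled position in the Slc15a1 values was not tested. Slc15a3, a lysosomal peptide and histidine carrier of macrophages and other leukocytes, held 19.2, 7.47, 11.8 and 15.2 CPM in DSS and 3.66, 6.13, 4.09 and 4.58 CPM in DSS+AP (-1.54 ± 0.29; edgeR adjusted p = 0.00679). Tmem132a, on the other strand, overlaps 28.1% of its exon bases, which makes its count uncertain. Slc15a4, its relative of endolysosomes, was level at 21.0 to 25.1 and 19.8 to 23.2 CPM (-0.10 ± 0.10). Slc15a2, the PEPT2 gene, varied more within DSS than any other tested transporter gene, at 0.334, 23.9, 7.81 and 12.6 CPM (coefficient of variation 88.5%).

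Most monocarboxylate carrier genes of SLC16 did not pass the test. Of 13 tested genes 9 had a positive and 4 a negative fold change, with a median of 0.29, 1 higher and 1 lower. At an unadjusted edgeR p under 0.05, 6 were higher and 2 lower, and the share of all tested genes there is not given here. DESeq2 called 4 higher and 2 lower, and limma-voom 4 higher and 3 lower. Slc16a5, which encodes MCT6, held 39.0, 82.8, 61.3 and 47.7 CPM in DSS and 116, 72.4, 138 and 117 CPM in DSS+AP (gene 217316; chromosome 11, 115462405 to 115474398). It rose by 0.94 ± 0.26 (edgeR adjusted p = 0.0244), although DSS+AP 2 was below DSS 2, and the call ended when DSS 3 (0.0505) or DSS 4 (0.0708) was left out, and likewise for DSS+AP 3 (0.0707) and DSS+AP 4 (0.0568).

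Slc16a1, the chief butyrate carrier of colonocytes (gene 20501; chromosome 3, 104638664 to 104658462), held 234, 298, 248 and 250 CPM in DSS and 326, 284, 302 and 320 CPM in DSS+AP. Only DSS 2 reached into the DSS+AP range. Its 0.26 ± 0.09 did not pass (edgeR adjusted p = 0.0648); without DSS 2 it was 0.40 and passed (0.00825), and DESeq2 and limma-voom called it (adjusted p = 0.0217 and 0.0124). Slc16a3, the lactate exporter MCT4 of glycolytic cells, had 31.2, 18.0, 15.99 and 26.4 CPM in DSS and 7.68, 19.8, 10.8 and 11.2 CPM in DSS+AP. At -0.89 ± 0.31 it did not pass either (edgeR adjusted p = 0.0594), and did without DSS+AP 2 (0.0138), with DESeq2 (0.0284) and with limma-voom (0.0128). Slc16a9, a carnitine carrier gene, held 5.13, 13.7, 12.3 and 6.45 CPM in DSS and 23.3, 6.83, 40.4 and 29.5 CPM in DSS+AP. Its 1.41 ± 0.51 had an edgeR adjusted p of 0.0642, and 0.0109 without DSS+AP 2, the 1 low library of its group. DESeq2 called it (adjusted p = 0.0110). Genes on the other strand overlap 23.5% of its exon bases, so its count is uncertain, as is that of Slc16a6, with 22.5%. The aromatic amino acid carrier gene Slc16a10 and Slc16a4, Slc16a6, Slc16a7, Slc16a8, Slc16a11, Slc16a12 and Slc16a13 lay between -0.54 and 1.01 and did not pass, and Slc16a14 was untested.

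**Figure D4:**
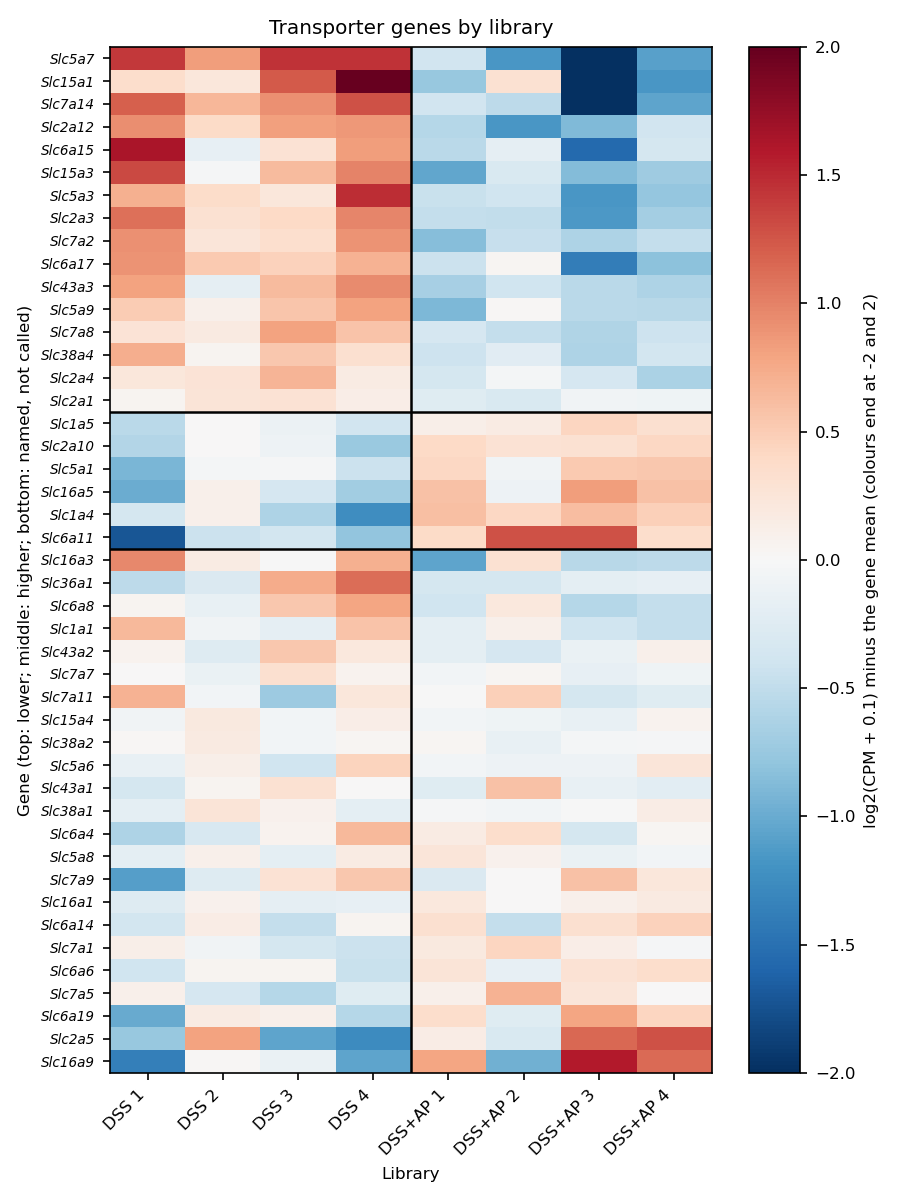
Log2(CPM + 0.1) minus the gene mean in each library (colour, ending at -2 and 2) for 22 called transporter genes and 23 other named ones. DSS+AP 2 departs from the other DSS+AP libraries in Slc16a9, Slc6a14 and Slc15a1.

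Partners and pathway genes of the transporters are read against the shares over all tested genes, 8.84% higher and 20.4% lower. Of 8 tested partners 3 fell and 0 rose, and 0 rose at an unadjusted edgeR p under 0.05. Slc3a2, the heavy chain of LAT1, LAT2 and xCT, held 82.8, 76.7, 83.4 and 92.7 CPM in DSS and 72.5, 69.3, 69.7 and 69.3 CPM in DSS+AP (-0.26 ± 0.07; edgeR adjusted p = 0.0256). Its counts were not whole in 7 libraries. Emb, which encodes the MCT partner embigin, changed by -1.33 ± 0.28 and Arrdc4, an arrestin that draws GLUT1 off the membrane, by -0.62 ± 0.09. The main MCT partner gene Bsg, at 0.24 ± 0.11, and the heavy chain gene Slc3a1, at 0.76 ± 0.34, did not pass. Of 16 genes of the amino acid response driven by ATF4, 4 rose and 1 fell. Phgdh, the first enzyme of serine synthesis, rose by 1.33 ± 0.25, Mthfd2 by 0.65 ± 0.17, Cth by 0.75 ± 0.21 and Aldh18a1 by 0.60 ± 0.17. Ddit4, an inhibitor of mTORC1 signalling, fell by 0.84 ± 0.13, and Atf4 itself, at 0.22 ± 0.08, did not pass (edgeR adjusted p = 0.0603). Among 10 tested brush border hydrolases Dpp4 was higher at 0.61 ± 0.11 and Ace lower at -0.90 ± 0.22. Among 16 tested genes of amino acid sensing by mTORC1 the GTPase gene Rragd fell by 1.17 ± 0.18. None of 3 tested lysosomal carriers of other families was called, and at an unadjusted edgeR p under 0.05 0 were.

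**Figure D5:**
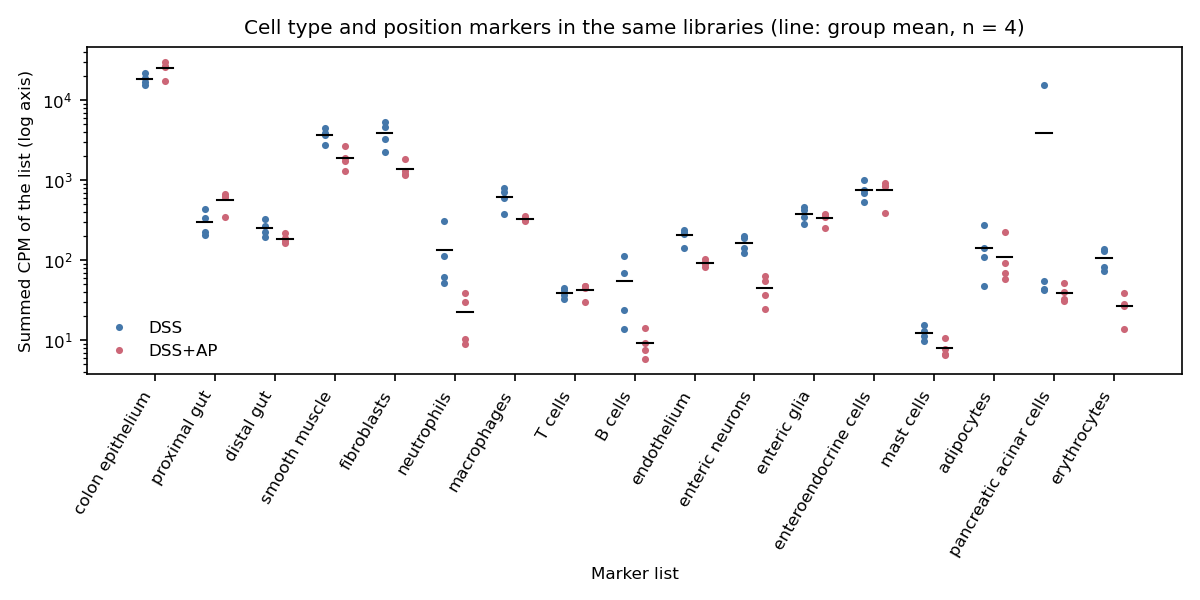
Summed CPM (log axis) of each marker list in the 8 libraries, with the group mean as a line. Enteric neuron, endothelium, fibroblast, smooth muscle, macrophage, neutrophil and erythrocyte sums do not overlap between the groups. Pancreatic acinar markers stand at 15448 CPM in DSS 4 against at most 54.9 CPM elsewhere.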

How the data were processed

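Colon RNA of 8 mice was sequenced, 4 per group. The deposited table holds estimated counts per gene, which the authors made from the reads; RSEM 1.2.8, Bowtie2 2.2.5 and HISAT2 2.1.0 are listed, with build GRCm38.p6, per the submitters' processing notes. No source used here gives the strand setting. The members, marker lists and pathway lists were chosen with earlier results of these data known. Counts were rounded, genes with low counts removed (filterByExpr) and libraries scaled by TMM. Groups were compared with edgeR 4.0.16 (quasi-likelihood, robust, R 4.3.3) over 14578 genes with Benjamini-Hochberg adjustment at 0.05. On simulated data the procedure recovered 20.7% of 1.5-fold changes, 58.6% of 2-fold and 86.7% of 4-fold ones. A gene that did not pass may therefore still have changed. CPM used the scaled totals of tested genes. Errors of fold changes are standard errors. The edgeR p-values set the difference between groups against the spread between these mice, estimated for each gene with information from all tested genes. Alternatives were other scaling factors and filters, no robust estimation, a replicate block, DESeq2 1.42.0, limma 3.58.1 (voom with quality weights) and leaving out each library. Genes were described by library where they were among the 4 smallest p-values past the threshold in a family or on a list of well-known colon transporters; Slc2a4 and Slc15a2 were added after their values were seen. Coordinates are RefSeq GRCm38.p6, and lengths are those of the longest GENCODE transcript of that build. The values of 2 transporter genes are not reported here, though counts over families and members include them.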

Additional observations from a re-analysis of the deposited data

Results flagged for a closer look

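In 4 of 90 combinations of a group and a gene described by library, Slc2a4 and Slc15a2 aside, 1 library stood apart from the other 3 by Dixon's criterion at 95%, and chance alone marks about 1 in 20. Slc2a5, the fructose carrier gene, stood at 5.65 CPM in DSS 2, and the nearest DSS library was at 1.84 CPM. The choline carrier gene Slc5a7 stood at 4.06 CPM in DSS 2, below the other DSS libraries, the nearest at 6.07 CPM. The vitamin carrier gene Slc5a6 stood at 21.0 CPM in DSS+AP 4, with the nearest at 17.04 CPM. Slc43a1, a carrier of branched-chain amino acids, stood at 8.46 CPM in DSS+AP 2, with the nearest at 5.08 CPM.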

How the results depend on the processing

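Of the 23 called transporter genes, 14 were called under all 16 alternatives that gave a value, 9 lost the call under at least 1, and 0 changed direction. The 6 higher transporter genes became 10 with DESeq2 and 13 with limma-voom, and 3 to 11 when 1 library was left out; the 17 lower ones became 11 to 17. Over all genes, the 1288 higher became 1950 without a filter, 2190 with DESeq2, 2379 with limma-voom and 525 to 2101 with 1 library left out, and the 2974 lower became 1985 to 3086. Without a filter, higher genes numbered 1 in SLC7 and 2 in SLC16, and lower genes 1 in SLC15 and 0 in SLC16. With at least 1 CPM in 4 libraries, lower genes numbered 1 in SLC6 and 0 in SLC38, where Slc6a15 and Slc38a4 were not tested. DESeq2 gave 1 higher in SLC7, 4 higher and 2 lower in SLC16 and 0 lower in SLC38. Limma-voom gave 2 higher in SLC6, 2 in SLC7, 4 in SLC16 and 1 in SLC36, with 3 lower in SLC16 and 2 in SLC38.

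With 1 library left out, higher genes numbered 1 to 2 in SLC1, 1 to 3 in SLC2, 0 to 1 in SLC5, 1 to 3 in SLC6, 0 to 2 in SLC7, 0 to 3 in SLC16 and 0 to 1 in SLC36. Lower genes numbered 0 to 1 in SLC1, 2 to 4 in SLC2, 1 to 3 in SLC6, 1 to 2 in SLC15, 0 to 1 in SLC16, 0 to 1 in SLC36 and 0 to 1 in SLC38.

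The shared replicate numbers showed no clear pairing of the mice. Same-numbered deviations correlated at -0.14, -0.45, 0.36 and -0.18, and of the DSS libraries only DSS 3 correlated best with its own number. DSS 1 and DSS 4 correlated positively only with DSS+AP 2, and DSS 2 and DSS 3 negatively only with it. Such a pattern can hide a pairing, so the check cannot exclude one. With the replicate number as a block, 582 genes were higher and 1967 lower, and 4 transporter genes were higher and 14 lower. SLC5 and SLC16 then had 0 higher, SLC6 and SLC15 had 1 lower, and SLC38 had 0 lower. Slc43a1 was at -0.012 under the block.

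Changes near 0 turned sign. Slc5a6 was at 0.043 without a filter and 0.033 with limma-voom, and ran from -0.15 to 0.14 with 1 library left out. Slc6a4 was at -0.052 with limma-voom and ran from -0.091 to 0.34, Slc7a9 from -0.042 to 0.42, Slc7a11 from -0.32 to 0.17, Slc15a4 from -0.14 to 0.0029 and Slc38a2 from -0.12 to 0.010. Slc38a1 was at -0.0046 with upper-quartile scaling and ran from -0.041 to 0.18. Slc43a1 was at -0.0066 with upper-quartile scaling and -0.21 with limma-voom, and ran from -0.23 to 0.16. As mean log2 CPM in place of summed CPM, the lysosomal carriers gave -0.041, the mTORC1 genes -0.17, the enteroendocrine markers -0.31 and the adipocyte markers 0.11, each opposite in sign to the sum. The distal gut markers went from -0.44 to -1.97, the proximal gut markers from 0.91 to 0.28 and the enteric glia markers from -0.18 to -1.41. The cause was not tested. Genes with few counts, such as Slc6a15 and Slc5a7 in DSS+AP, are limited by depth.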

Other observations

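The transporter genes differed among mice of 1 group, a pattern chosen after the values were seen. DSS 1 and DSS 4 were both below DSS 2 and DSS 3 in 24 of the 77 tested transporter genes (31.2%), against 19.2% of all tested genes, and both above them in 16 (20.8%), against 23.7%. The 24 included 5 of the 6 higher genes, Slc1a4 being the other, and 2 of the 17 lower genes, and the 16 included 9 of the 17 lower genes. DSS+AP 2 was the lowest library of its group in 32 of 77 (41.6%), against 33.0% of all tested genes, and the highest in 25 (32.5%), against 35.1%, among them 10 of the 17 lower genes. The counts among called genes rest on the same values as the calls. Without the shares over all called genes, which were not computed, they are not a result about the transporters. Both low patterns held in 16 of the 77 transporter genes, among them Slc5a1, Slc2a10, Slc16a5 and Slc16a9, and in 1927 of all 14578 genes tested. The median coefficient of variation of the tested transporter genes was 23.1% in DSS and 19.0% in DSS+AP, where all tested genes had 14.5% and 11.6%. This coefficient depends on the level of a gene, and the 2 sets were not matched for level. The difference is therefore not a result about the transporters.

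The glutamine carrier genes Slc38a3 and Slc38a5, untested for low counts, had 26 and 17 counts in DSS 4 and at most 4 and 2 in any other library. In the same library the summed pancreatic acinar markers stood at 15448 CPM, against 30.7 to 54.9 CPM elsewhere. DSS 4 was also the highest library of other transporter genes, among them Slc5a3, Slc6a8, Slc15a1 and Slc36a1. The part of the acinar tissue in the counts of any of these genes was not tested.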
